A study of Mus musculus with 6 samples.

Results

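The DNA replication genes are 45 named genes whose products license origins, unwind and copy DNA, supply nucleotides or rebuild chromatin behind the fork, together with the transcription factor gene E2f1. Their RNA levels were compared between NME cells, which are sensitive to the EGFR inhibitor AG1478, and AGR cells, which are resistant to it. Each gene was taken as the brightest probe set that carries its symbol alone, on the log2 scale of intensity. All 45 genes were measured, out of 19938 genes that have a probe set of their own.

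RNA levels were read on 6 Affymetrix Mouse Gene 1.0 ST arrays, 3 of NME cells and 3 of AGR cells. The parental NME line was made from the mouse mammary line NMuMG, in which forced expression of EGFR gave a transformed phenotype. AGR cells are a single colony of NME cells that grew out in 3D culture with 1 µM AG1478. The colony was then expanded in 2D culture. AGR cells thus descend from cells with forced EGFR expression and stand for 1 clone, and their own EGFR level was not examined here. The labels give DMEM with serum and insulin for both lines, and the methods say that resistant lines were kept without drug once established. Nothing states that the arrays of a line came from separate cultures, so each p-value reflects array-to-array spread alone, which may be technical. In bulk RNA such as this, a larger share of cells in S phase and more RNA per cell cannot be told apart.

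Before a cell copies its DNA, the origin recognition complex, CDC6 and CDT1 load the ring-shaped MCM helicase onto origins, a step called licensing. Kinases then recruit CDC45 and the GINS complex, which turn MCM into the active helicase, and polymerases, the sliding clamp PCNA and its loader RFC copy both strands. Many of these genes are known targets of E2F transcription factors, which the retinoblastoma protein holds in check until late G1, so their RNAs are known to rise together as cells enter S phase.

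Because E2F factors bind short GC-rich motifs near start sites, the promoter windows of the genes were searched for the 8-base spellings TTTCCCGC, TTTGGCGC, TTTCGCGC and TTTGCCGC on both strands, with overlapping matches counted. Windows ran from 250 bases before to 50 bases after the start and came from RefSeq (GRCm38.p6), where 36 of the 45 genes had one. Of these 36 genes, 14 held a match (38.9%), compared with 704 of all 27025 genes with a window (2.60%). Stretches around these matches let the spellings be compared between genes of different roles. Each runs 5′ to 3′ on the strand of its gene, with the matched bases in capitals.
Orc1, chr4:108579411-108579450, plus strand: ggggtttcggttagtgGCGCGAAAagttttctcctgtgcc
Cdc6, chr11:98907997-98908036, plus strand: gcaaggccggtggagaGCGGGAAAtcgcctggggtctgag
Mcm3, chr1:20820283-20820309, minus strand: accataaacttccgtgGCGGGAAAact
Mcm5, chr8:75109340-75109383, plus strand: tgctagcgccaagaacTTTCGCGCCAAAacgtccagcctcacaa
Mcm6, chr1:128359729-128359831, minus strand: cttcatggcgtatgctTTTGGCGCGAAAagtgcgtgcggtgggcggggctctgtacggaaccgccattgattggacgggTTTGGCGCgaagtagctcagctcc
Gins3, chr8:95633502-95633541, plus strand: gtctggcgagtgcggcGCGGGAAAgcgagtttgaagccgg
Pola1, chrX:93632270-93632309, minus strand: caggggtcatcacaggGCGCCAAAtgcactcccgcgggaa
Pole2, chr12:69228161-69228196, minus strand: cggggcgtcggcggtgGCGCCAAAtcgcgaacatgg
Rfc3, chr5:151651185-151651234, minus strand: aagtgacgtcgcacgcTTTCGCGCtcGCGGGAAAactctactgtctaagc
Uhrf1, chr17:56304112-56304151, plus strand: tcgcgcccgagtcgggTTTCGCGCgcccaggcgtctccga

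In Mcm5 and Mcm6 the capitals hold matches on both strands that overlap, and Mcm6 has another match closer to its start. The Mcm3 and Pole2 matches shown lie after the start, in the transcribed part, and the remaining matches shown lie before it or, in Rfc3, on both sides of it. Uhrf1 has several RefSeq starts, and the window of 1 of them holds the match. The genes Cdt1, Mcm7, Pold1 and Lig1 also held a match. By role, 4 of 5 MCM genes with a window held a match, 3 of 4 polymerase genes, 3 of 5 licensing genes and 0 of 5 nucleotide supply genes. A match is a string of letters and not evidence of binding. Only exact copies of these spellings were searched, so a missing match does not show that a gene lacks an E2F site.

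AGR cells had more RNA of the replication genes than NME cells. In limma (moderated linear model, Benjamini-Hochberg adjusted p under 0.05 over all 19938 genes) 35 of the 45 genes were higher in AGR cells (77.8%) and 0 were lower, where 24.2% of all genes passed, 12.6% on the higher side and 11.6% on the lower. At an unadjusted p under 0.05 the counts were 42 and 0, against 17.0% of all genes higher and 16.5% lower. A fold change above 2 was reached by 16 of the 35 (35.6% of the 45 genes, against 1.50% of all genes in that direction), from 2.02-fold for Lig1 to 2.64-fold for Rrm2. The estimate was above 0 for 45 of 45 genes and for 43.8% of all genes. The median log2 difference was 0.71 (range 0.11 to 1.40) against -0.02 over all genes. The AGR arrays lay above every NME array for 38 of the 45 genes, and 17.9% of all genes did not overlap in this direction. Without the third AGR array the count fell to 23 of 45, and the two-sided test that the study's methods name, with the same adjustment, called 18. Leaving out a single array also changed the count over all genes, over a range given in the last section. The share of all genes called in either setting is not given here, so these lower counts cannot be set against the 24.2% above.

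**Figure D1:**
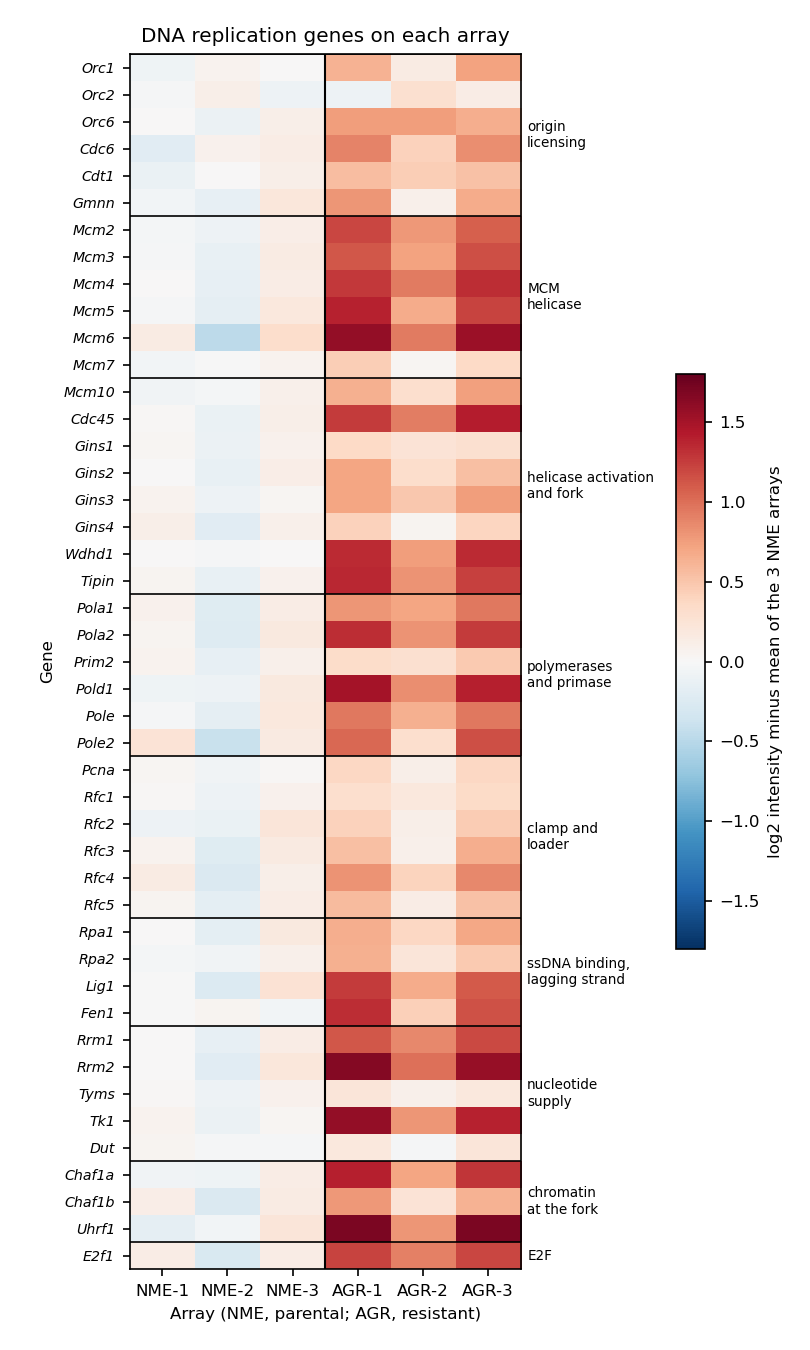
Log2 intensity of each of the 45 genes (rows, by role) on each of the 6 arrays (columns), as the difference from the mean of the 3 NME arrays of that gene. The AGR columns are red for nearly all genes, and the AGR-2 column is paler than the AGR-1 and AGR-3 columns.

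As the heat map shows, the arrays of a line were not alike for these genes. The mean log2 level of the 45 genes was 9.63, 9.49 and 9.74 on the NME arrays and 10.51, 10.11 and 10.49 on the AGR arrays, so the second array was the low one in both lines. AGR-2 was the lowest AGR array for 43 of the 45 genes (95.6%), where it was lowest for 39.0% of all genes. NME-2 was the lowest NME array for 37 of the 45 genes (82.2%), against 40.0% of all genes. AGR-2 minus the mean of AGR-1 and AGR-3 had a median of -0.39 over the 45 genes and 0.00 over all genes, and its lowest value was -0.91, for Uhrf1. Even so, 39 of the 45 genes on AGR-2 lay above every NME array, with 44 on AGR-1 and 45 on AGR-3. The same held for 29.2% of all genes on AGR-2, 31.8% on AGR-1 and 28.0% on AGR-3. Without AGR-2 the calls rose to 43 genes and the median log2 difference to 0.84. Without both second arrays, a setting chosen after seeing the data, 42 genes were called and the median was 0.71. These counts stand without the share of all genes called in the same settings, which also varied.

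Some mitotic genes and some markers of cell types differed between the lines as well. Of all genes 24.2% passed, 12.6% on the higher side and 11.6% on the lower. Of 15 mitotic genes, which are expressed in G2 and M phase, 5 were higher, 0 were lower and 10 did not pass, with a median log2 difference of 0.53. Their mean level was 10.46, 10.25 and 10.57 on the NME arrays and 11.14, 10.57 and 11.13 on the AGR arrays, low on the same second arrays as the replication genes. Of 10 mammary epithelial markers 4 were lower and 0 higher in AGR cells, and their mean log2 level ranged from 10.65 to 10.67 in NME and from 10.10 to 10.17 in AGR cells. Krt8 was the brightest of them, and Epcam and Cldn7 lay below the median probe set. Of 9 hepatocyte markers 7 were lower, and their mean ranged from 10.07 to 10.19 in NME and from 7.47 to 7.64 in AGR cells, with Alb at 13.06 and 6.71. Among 8 fibroblast markers 1 was higher (6.91 to 7.02 in NME, 6.95 to 7.01 in AGR), among 7 leukocyte markers 2 were higher and 1 lower (7.78 to 7.84, 7.85 to 7.91), among 6 endothelial markers none passed (6.79 to 6.92, 6.77 to 6.84), and among 5 adipocyte markers 1 was lower (at most 7.07 in NME, 6.73 to 6.79 in AGR). The shares that passed among fibroblast (12.5%), endothelial (0%) and adipocyte markers (20%) were below that of all genes. Those of the mitotic (33.3%), mammary (40%), leukocyte (42.9%) and hepatocyte lists (77.8%) were above it. The part of the mitotic and marker differences in the result for the replication genes was not tested.

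**Figure D2:**
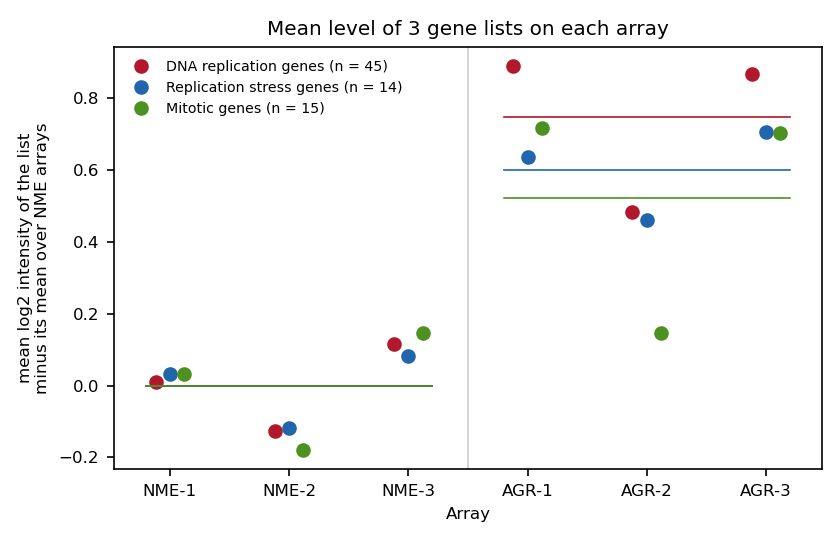
Mean log2 intensity of the 45 replication genes, 14 replication stress genes and 15 mitotic genes on each array, minus the mean of that list over the NME arrays; horizontal lines are the means of the 3 arrays of a line. All 3 lists are higher on the AGR arrays, and all 3 are lowest on the second array within each line.

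Most origin licensing genes were higher in AGR cells, by less than 2-fold. Of the 6 genes, 4 were higher (Orc1, Orc6, Cdc6 and Cdt1), with a median log2 difference of 0.51. Orc6, a small subunit of the origin recognition complex, had log2 levels of 10.17, 10.06 and 10.28 in NME cells and 10.92, 10.93 and 10.82 in AGR cells. These AGR values lay close together and well above NME, and AGR-2 was not low. The difference of 0.72 ± 0.07 (SE, 1.65-fold, adjusted p = 0.000433 in limma) had the lowest adjusted p of the 45 genes. Cdt1, which delivers MCM to origins, was 1.42-fold higher (adjusted p = 0.00179), and Cdc6, which works with it, was 1.64-fold higher (adjusted p = 0.0131). Orc1, an ATPase subunit of the recognition complex, was near the threshold at 1.41-fold (adjusted p = 0.0489). Orc2 had a log2 difference of 0.11 (95% interval -0.13 to 0.35) with overlapping arrays. Gmnn, which encodes the CDT1 inhibitor geminin, had a difference of 0.52 (95% interval 0.07 to 0.97, adjusted p = 0.0986). Orc1 and Gmnn were the only 2 of the 45 genes with a mean level below the median probe set.

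The MCM genes had large differences, with 5 of 6 higher, 4 of them above 2-fold, and a median log2 difference of 1.06. The MCM proteins form a ring of 6 different subunits, the motor of the replicative helicase. Mcm2 had log2 levels of 10.56, 10.51 and 10.72 in NME and 11.80, 11.38 and 11.67 in AGR cells. Mcm4 stood at 10.08, 9.92 and 10.20 in NME and at 11.33, 11.01 and 11.40 in AGR cells. For both, the lowest AGR array lay clear of the highest NME array, and the rises were 2.03-fold (adjusted p = 0.000932) and 2.27-fold (adjusted p = 0.000600). Mcm5 was measured at 10.41, 10.27 and 10.62 in NME and at 11.82, 11.11 and 11.65 in AGR cells. Mcm6 had values of 9.58, 8.97 and 9.75 in NME and 11.01, 10.37 and 10.97 in AGR cells. Both spread more widely, with the second array low in each line, and both still separated. Mcm6 rose 2.55-fold (log2 1.35 ± 0.25, adjusted p = 0.00765) and Mcm5 2.13-fold (log2 1.09 ± 0.19, adjusted p = 0.00589). Mcm3 was just short of the fold threshold at 1.997-fold (adjusted p = 0.00190), and Lig1 lay just inside it at 2.016-fold.

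Mcm7 had the smallest difference of the MCM genes and did not pass. Its log2 levels were 11.44, 11.48 and 11.55 in NME and 11.93, 11.53 and 11.84 in AGR cells, and AGR-2 fell below NME-3. The difference was 0.28 (95% interval 0.03 to 0.53, adjusted p = 0.112 in limma). Within each array, Mcm7 minus the mean of Mcm2 to Mcm6 was 1.35, 1.60 and 1.29 in NME and 0.54, 0.64 and 0.50 in AGR cells. This change of -0.85 ± 0.10 separated all arrays. Its exact two-sided permutation p was 0.1, the smallest that 3 against 3 arrays allow. This comparison was 1 of 8 of its kind, chosen after the values were seen, and all 8 had that p, before and after adjustment.

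The genes that turn MCM into a moving fork split into 2 tiers. Of 8 genes, 7 were higher, with a median log2 difference of 0.60. Cdc45, the helicase cofactor, had log2 levels of 9.05, 8.91 and 9.14 in NME and 10.29, 9.95 and 10.44 in AGR cells. Wdhd1, the counterpart of yeast Ctf4 that ties the helicase to polymerase alpha, was at 8.38, 8.35 and 8.38 in NME and at 9.72, 9.13 and 9.72 in AGR cells. Tipin, the partner of Timeless in the fork protection complex, was at 8.32, 8.13 and 8.35 in NME and at 9.63, 9.07 and 9.50 in AGR cells. These were the 3 genes above 2-fold, at 2.28-fold (adjusted p = 0.000845), 2.22-fold (adjusted p = 0.00215) and 2.19-fold (adjusted p = 0.00171). The GINS genes had smaller differences. Gins1, Gins2 and Gins3 rose by 0.30, 0.52 and 0.64 on the log2 scale, and Gins4 had a difference of 0.29 (95% interval -0.02 to 0.59, adjusted p = 0.170). Mcm10, a factor needed for helicase activation, was 1.47-fold higher (adjusted p = 0.0129).

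**Figure D3:**
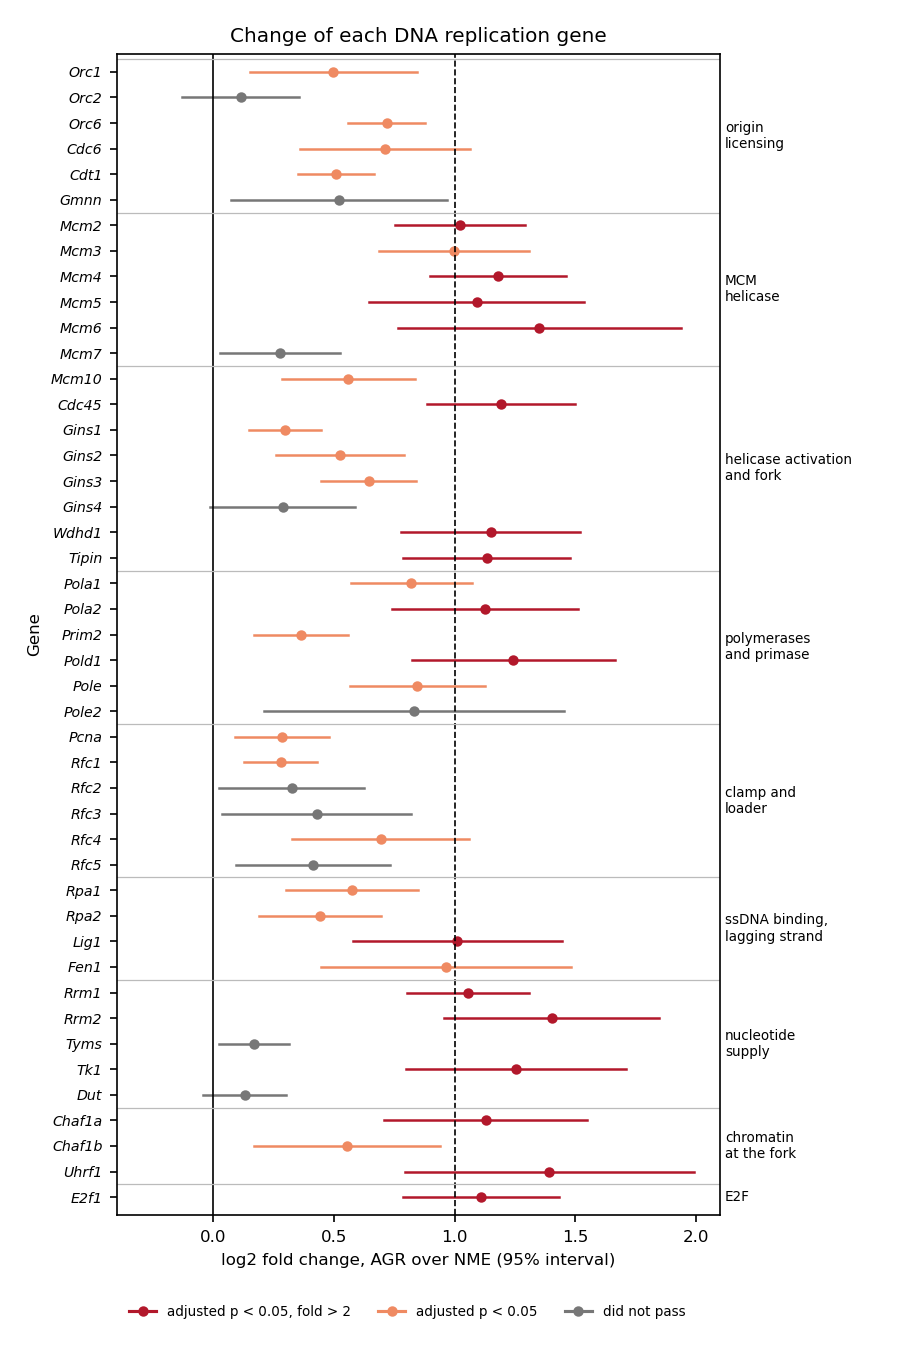
Log2 fold change of each of the 45 genes, AGR over NME, with its 95% interval from limma, ordered by role; dark red marks an adjusted p under 0.05 with a fold change above 2, orange an adjusted p under 0.05, and grey the genes that did not pass. All 45 estimates lie right of 0, and 16 genes lie past the dashed line of a 2-fold change with an adjusted p under 0.05.

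Of 6 polymerase and primase genes, 5 were higher in AGR cells, 2 of them above 2-fold, and the median log2 difference was 0.84. Pold1, the catalytic subunit of polymerase delta, was at 8.91, 8.90 and 9.18 in NME and at 10.49, 9.83 and 10.40 in AGR cells, a rise of 2.37-fold (log2 1.24 ± 0.18, adjusted p = 0.00265). Pola2, the accessory subunit of polymerase alpha, was at 10.02, 9.73 and 10.15 in NME and at 11.29, 10.77 and 11.22 in AGR cells (2.18-fold, adjusted p = 0.00274). Pola1, the catalytic subunit of polymerase alpha, was at 9.19, 8.90 and 9.25 in NME and at 9.91, 9.82 and 10.06 in AGR cells. Its arrays separated with a 1.76-fold rise, and its adjusted p of 0.00171 was the lowest of these genes. Pole, the catalytic subunit of polymerase epsilon, was 1.80-fold higher (adjusted p = 0.00245), and Prim2, the large primase subunit, 1.29-fold (adjusted p = 0.0177). Pole2, the accessory subunit of polymerase epsilon, had a difference of 0.83 with a wide interval (0.21 to 1.46) and did not pass (adjusted p = 0.0628), although its arrays did not overlap.

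The sliding clamp and its loader had the smallest median of the role groups with more than 1 gene, with 3 of 6 genes higher (Pcna, Rfc1 and Rfc4), none above 2-fold, and a median log2 difference of 0.37. Rfc4, a small subunit of the loader, was at 10.97, 10.56 and 10.92 in NME and at 11.63, 11.22 and 11.68 in AGR cells. It rose 1.62-fold (log2 0.69 ± 0.15, adjusted p = 0.0171) and led this group. Rfc1, the large subunit, rose 1.21-fold (adjusted p = 0.0190). Rfc2, Rfc3 and Rfc5 had log2 differences of 0.32, 0.43 and 0.41 with adjusted p between 0.0698 and 0.121. Pcna was near the threshold at 1.22-fold (adjusted p = 0.0471). Pcna and Tk1 each have a further probe set with their symbol alone, and signal from near-identical copies cannot be separated for them. The other probe sets gave log2 differences of 0.28 for Pcna and 1.45 for Tk1, against 0.28 and 1.26 for those used.

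All 4 genes for single-strand binding and the lagging strand were higher, 1 above 2-fold. Lig1, the ligase that joins Okazaki fragments, was at 8.93, 8.69 and 9.19 in NME and at 10.20, 9.60 and 10.04 in AGR cells (2.02-fold, adjusted p = 0.00727). Fen1, the nuclease that trims their flaps, rose 1.95-fold (adjusted p = 0.0180), with AGR-2 at 8.61 far below AGR-1 at 9.51 and AGR-3 at 9.33. Rpa1 and Rpa2, subunits of the protein that coats single strands, rose 1.49-fold and 1.36-fold.

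Among 5 nucleotide supply genes, those of ribonucleotide reductase and thymidine kinase were higher, all 3 above 2-fold, and the thymidylate pathway genes Tyms and Dut did not pass. Rrm2, the regulatory subunit of ribonucleotide reductase, which makes deoxynucleotides, was at 10.31, 10.11 and 10.51 in NME and at 11.96, 11.30 and 11.88 in AGR cells. Rrm1, its catalytic subunit, was at 11.19, 11.05 and 11.33 in NME and at 12.31, 12.05 and 12.38 in AGR cells. Tk1, the salvage enzyme for thymidine in S phase, was at 9.54, 9.37 and 9.51 in NME and at 11.06, 10.26 and 10.86 in AGR cells. No AGR array overlapped NME in any of these 3 genes. Rrm2 rose 2.64-fold (log2 1.40 ± 0.19, adjusted p = 0.00205), Tk1 2.39-fold (adjusted p = 0.00360) and Rrm1 2.08-fold (adjusted p = 0.000612). Tyms, thymidylate synthase, had a log2 difference of 0.17 (95% interval 0.02 to 0.31, adjusted p = 0.101) and Dut, the dUTPase, of 0.13 (95% interval -0.04 to 0.30, adjusted p = 0.276), so a 2-fold rise lies outside both intervals.

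The chromatin genes at the fork were all higher, with a median log2 difference of 1.13. Uhrf1, which guides DNMT1 to newly copied DNA, was at 9.11, 9.22 and 9.49 in NME and at 10.97, 10.07 and 10.98 in AGR cells. Its AGR-2 value was the one farthest from the other AGR arrays among the 45 genes, yet it stayed above NME, and the rise was 2.63-fold (log2 1.39 ± 0.25, adjusted p = 0.00745). Chaf1a, the large subunit of chromatin assembly factor 1, was at 8.71, 8.70 and 8.91 in NME and at 10.16, 9.48 and 10.05 in AGR cells (2.19-fold, adjusted p = 0.00397). Chaf1b, its middle subunit, rose 1.47-fold and was near the threshold (adjusted p = 0.0487).

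E2f1, an activating E2F factor, was at 9.36, 8.96 and 9.37 in NME and at 10.45, 10.14 and 10.43 in AGR cells. The lines separated clearly, and the rise was 2.16-fold (log2 1.11 ± 0.14, adjusted p = 0.00140). Among 17 other E2F and retinoblastoma family genes, 7 were higher and 1 was lower, with a median log2 difference of 0.23. The higher ones included the dimer partner gene Tfdp1 (0.50), Mybl2, a partner of the MuvB complex (1.15), and the repressors E2f7 (1.02) and E2f8 (1.84). Rb1, the retinoblastoma gene, was the lower one at -0.48 (adjusted p = 0.00420). E2f2 and E2f4 had log2 differences of -0.07 and -0.09 and did not pass (adjusted p = 0.535 and 0.206).

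Related genes outside the 45 included some that were lower in AGR cells. The 6 related lists, with 116 measured genes, hold replication genes and also the mitotic, E2F and retinoblastoma family genes above. Of all genes 24.2% passed, 12.6% on the higher side and 11.6% on the lower. Of the 116 genes, 60 were higher and 8 were lower (58.6% called). These 68 calls became 40 without the first NME array, 44 without the second NME array, 42 without the third AGR array and 36 with the test of the study's methods. The share of all genes called in these settings is not given beside them, so these counts cannot be set against 24.2%. In the other replication machinery 20 of 38 were higher and 4 lower (median log2 difference 0.28). In the nucleotide pathways 9 of 18 were higher and 1 lower (0.20). The lowest adjusted p were those of Dctd (0.75), Ctps (0.77), Cad (0.93) and Gart (0.52), enzymes of pyrimidine and purine synthesis, and Samhd1, which degrades deoxynucleotides, was also higher (0.91). In the control of licensing and S phase entry 8 of 14 were higher and 2 lower (0.28), with the cyclin E genes Ccne1 (1.94) and Ccne2 (0.90) and the CDT1 ubiquitin ligase adaptor Dtl (0.87) higher. The cyclin-dependent kinase inhibitor Cdkn1b (-0.49) and the anaphase-promoting complex activator Fzr1 (-0.19) were lower. In the replication stress checkpoint 11 of 14 were higher and 0 lower (0.58), including the kinases Chek1 (0.81) and Atr (0.46) and the helicase Blm (1.07).

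Within several complexes, subunits or paralogs went different ways, and the genes in these comparisons were chosen after their values were seen. Orc4 and Orc5, large subunits of the origin recognition complex, were lower in AGR cells by log2 values of -0.54 (adjusted p = 0.0181) and -0.38 (adjusted p = 0.0402), while Orc1 and Orc6 were higher. Within each array, Orc6 minus the mean of Orc4 and Orc5 was 0.09, 0.13 and 0.32 in NME and 1.61, 1.19 and 1.27 in AGR cells, a change of 1.18 ± 0.15. In polymerase delta, Pold1 and Pold2 (0.68, adjusted p = 0.00248) were higher and the small subunit gene Pold4 was lower (-0.33, adjusted p = 0.00929). The histone chaperone paralogs Asf1b (1.22, adjusted p = 0.00130) and Asf1a (-0.61, adjusted p = 0.000649) moved in opposite directions. Asf1b minus Asf1a changed by 1.84 ± 0.14.

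Rrm2b and Tk2, paralogs known for roles outside S phase and chosen after their values were seen, had small differences that did not pass. Rrm2b, the ribonucleotide reductase subunit used in resting and damaged cells, was at 9.25, 9.20 and 9.31 in NME and at 9.17, 9.29 and 9.27 in AGR cells (log2 difference -0.01, 95% interval -0.14 to 0.12). Tk2, the mitochondrial thymidine kinase, had a difference of 0.09 (95% interval -0.08 to 0.27). The difference between paralogs, Rrm2 minus Rrm2b, changed by 1.41 ± 0.25 within arrays, that of Tk1 minus Tk2 by 1.16 ± 0.27, and that of E2f1 minus E2f4 by 1.20 ± 0.19. Pold1 minus Pold4 changed by 1.57 ± 0.23, and Rfc4 minus the mean of Rfc1, Rfc2, Rfc3 and Rfc5 by 0.33 ± 0.08. Each of these had the exact permutation p of 0.1 given above.

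**Figure D4:**
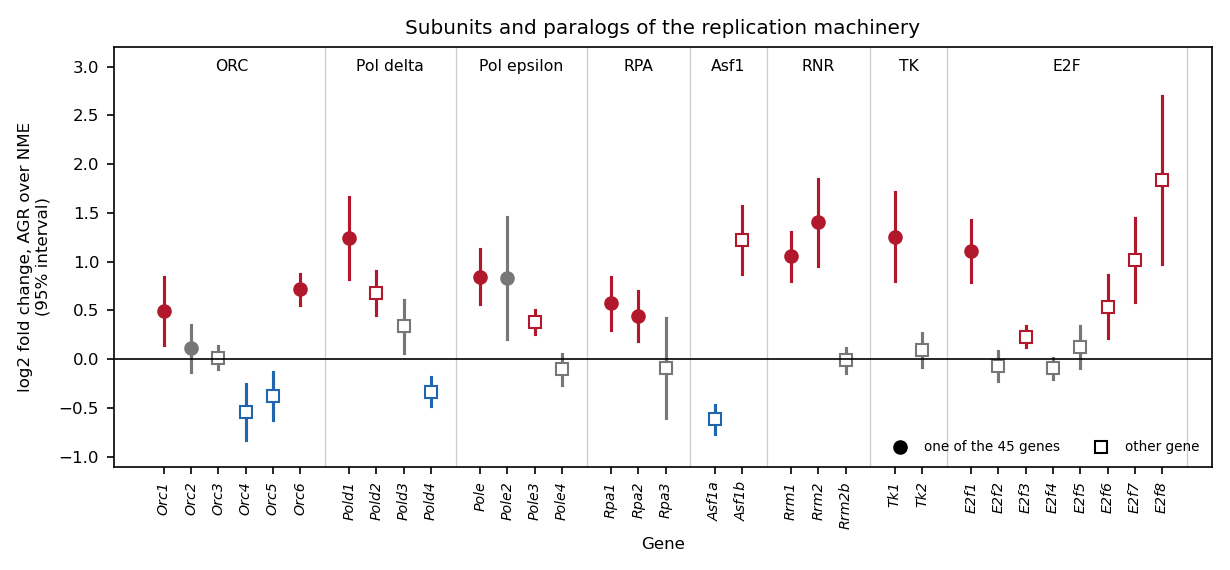
Log2 fold change, AGR over NME, with its 95% interval from limma, for subunits and paralogs of 8 groups; filled circles are genes of the 45 and open squares are other genes, with red higher, blue lower and grey not passed. Orc4, Orc5, Pold4 and Asf1a lie below 0, opposite to Orc6, Pold1 and Asf1b.

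The E2F motif letters were set beside the changes as a description. The 14 genes with a match had a median log2 difference of 0.83, and 11 of them were called. The 22 genes with a window and no match had a median of 0.71, and 18 of them were called. Of the 14 called genes above 2-fold that had a window, 5 held a match, and Rrm1, Rrm2, Tk1 and E2f1 were among those without. Pole2, Rfc3 and Mcm7, with a match, did not pass. Among all genes on the array with a window, 3.48% held a match. The share was 7.42% of those higher in AGR cells, 2.02% of those lower and 3.04% of those that did not pass. Among the related lists a match was held by 10 of 34 genes of the other machinery, 6 of 13 E2F and retinoblastoma family genes, 3 of 11 licensing control genes, 1 of 11 replication stress genes, 1 of 13 mitotic genes and 0 of 17 nucleotide pathway genes.

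The 45 genes lie on 16 chromosomes, and the medians over their chromosomal neighbours were small. For each gene the median log2 difference of the 10 measured genes on each side was taken, in the RefSeq gene order (10 in all for Rfc3). These neighbourhood medians ran from -0.24 to 0.21 with a median of -0.02, and all genes had a median of -0.02 with the 5th to 95th percentile from -0.10 to 0.08. The gene itself exceeded its neighbourhood in 44 of 45 cases, and Orc2 was the exception (0.11 against 0.12). Since all 45 estimates were above 0 and the neighbourhood medians lay near 0, this count was nearly fixed in advance. Mcm4 and Cdc45, both on chromosome 16, had raised neighbourhoods. Around Mcm4 7 of 20 neighbours were higher and 0 lower (median 0.17), and around Cdc45 8 of 20 were higher and 0 lower (median 0.21, or 0.42 with 5 neighbours on each side). Both lie between Mettl22 and Etv5, a segment picked after its values were seen, in which 74 of 173 genes were higher and 1 lower with a median of 0.16, against -0.02 on the rest of the chromosome. The differences of Mcm4 (1.18) and Cdc45 (1.19) were larger than these medians. Mcm7, on chromosome 5, had the lowest neighbourhood, where 10 of 20 neighbours were lower and 1 was higher (median -0.24). Outside chromosome 5 the lowest median was that of E2f1, on chromosome 2 (-0.12, with 7 of 20 neighbours lower and 0 higher). The other genes of the 45 on chromosome 5 also had negative medians, as did most of the 45. These were Rfc1 (-0.13), Pole (-0.10), Rfc5 (-0.10), Rfc3 (-0.07), Tyms (-0.05) and Rfc2 (-0.02). The comparison of Rfc4 with the other loader genes therefore set a gene on chromosome 16 against genes on chromosome 5. Rfc4 itself lies outside the segment from Mettl22 to Etv5. Its neighbourhood median was 0.03, or 0.02 with 5 neighbours on each side. DNA copy number was not measured here, and its part in these values was not tested.

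**Figure D5:**
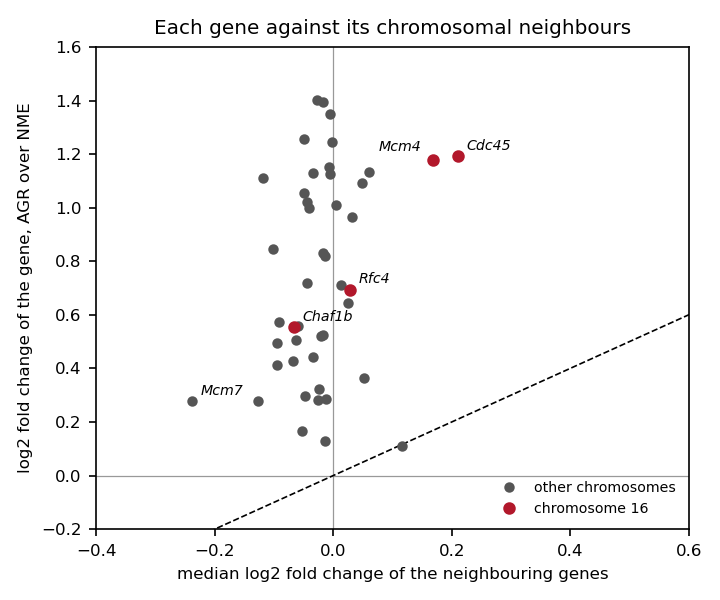
Log2 fold change of each of the 45 genes, AGR over NME (vertical axis), against the median log2 fold change of its 10 measured neighbours on each side (horizontal axis); the dashed line marks equal values and red points are genes on chromosome 16. All genes but Orc2 lie above the line, Mcm4 and Cdc45 have the highest neighbourhood medians (0.17 and 0.21), and Mcm7 has the lowest (-0.24).

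The 45 genes also varied more between arrays of a line than most genes did. Their median SD on the log2 scale was 0.14 in NME and 0.23 in AGR cells (n = 3 each), against 0.07 in each line over all genes. The SD was larger in AGR than in NME cells for 35 of the 45 genes and for 55.9% of all genes. The SE of the differences ran from 0.06 to 0.26. Across 16 alternative settings no gene of the 45 changed direction, with Orc1 and Gmnn left out of 1 of these settings by its filter on dim genes. The call was kept in each setting by 18 genes, which were Orc6, Cdt1, Mcm2, Mcm3, Mcm4, Cdc45, Gins3, Wdhd1, Tipin, Pola1, Pola2, Pold1, Pole, Rrm1, Rrm2, Tk1, Chaf1a and E2f1. Mcm5, Mcm6, Lig1 and Uhrf1 lost it with the test of the study's methods only. Orc1, Pcna, Rpa2, Fen1 and Chaf1b lost it when any 1 array other than AGR-2 was left out. Leaving out a single array also ended the call of Cdc6 (NME-1, AGR-1 or AGR-3), Rfc1 (each array but NME-3 and AGR-2), Rfc4 (NME-2, AGR-1 or AGR-3), Mcm10 (NME-1, NME-2 or AGR-1), Gins1 (AGR-1 or AGR-3), Gins2 (NME-1, NME-2 or AGR-3), Rpa1 (NME-1 or AGR-3) and Prim2 (AGR-3). Without AGR-2, no call was lost and 8 of the 10 other genes passed, all but Orc2 and Tyms.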

How the data were processed

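RNA of 3 NME and 3 AGR arrays was compared, with the line of each array taken from its title. The authors deposited linear intensities, already processed, for which their notes list MAS5 and no version. MAS5 relies on mismatch probes, which these arrays lack, so how the intensities were normalized is unknown. The submitters' design text speaks of 3 groups where the labels hold these 2 lines. No depth applies to arrays, and their number limits the precision. Array medians ran from 190.4 to 200.8. Across all probe sets, arrays of a line correlated at 0.995 to 0.997 and arrays of different lines at 0.986 to 0.988. Log2 was taken with no offset. Of 35557 probe sets, 21789 carried 1 gene symbol, 1621 several and 12147 none, and only the single-symbol sets were used. Gene IDs tied 21698 of the single-symbol sets to RefSeq (GRCm38.p6), and 0 symbols differed. That table gave names and gene order only, and promoter windows came from RefSeq on the same assembly. The brightest probe set stood for a gene.

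AGR and NME were compared in limma 3.58.1 (R 4.3.3) by lmFit followed by eBayes, with p-values adjusted by Benjamini-Hochberg over all 19938 genes, and errors given with ± are SE. The 45 genes and the related lists were chosen with earlier results of these data known, so no test over a list was made. Array values were given, by rule, for genes above 2-fold and for the gene with the lowest adjusted p in each role. Of other lists up to 4 genes in each direction with the lowest adjusted p were named, and others (E2f2, E2f4, E2f8, Pold2, Rrm2b, Samhd1 and Tk2), like the array values of Mcm7, were chosen after their values were seen. Alternatives were quantile normalization, median centring, filters on dim genes, the mean of all probe sets, eBayes with a trend and robust fit, the methods' two-sided test, a replicate block, an offset of 16, unadjusted p-values, leaving out arrays, 5 neighbours on each side and fewer motif spellings. On simulated data with 19938 genes the fit found 39 of 50 genes set to a 1.5-fold change. At 2-fold it found 48 of 50, at 3-fold 50 of 50 and at 4-fold 49 of 50, and it called 4 of 19738 unchanged genes. The simulated noise was independent between genes, and the changed genes were picked at random. The 45 genes varied more than most genes and were low together on the second arrays, so these rates do not carry over to them.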

Additional observations from a re-analysis of the deposited data

How the results depend on the processing

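The direction of each of the 45 replication genes was kept under all 16 alternatives of the fit (15 for Orc1 and Gmnn, which the stricter filter on dim genes left out), while 17 of the 35 called genes lost the call in at least 1 of them and 8 of the 10 others gained it in at least 1. The number of called replication genes fell from 35 to 18 with the two-sided test of the study's methods. That of called genes in the related lists fell from 68 to 36. The share of all genes called with that test is not given here, so these falls cannot be set against it. Leaving out 1 array gave 23 to 43 called replication genes, 12 to 19 of them above 2-fold, a median log2 difference of 0.63 to 0.84, 40 to 81 called related genes and 3458 to 5356 called genes in all. The 23 came without the third AGR array, and related genes fell to 42 without it, to 40 without the first NME array and to 44 without the second NME array. These fits have fewer arrays. With an offset of 16 before log2 33 replication genes were called, and with dim genes below the median probe set left out 36 of 43 were called, where 41% of all genes were called. The share of promoters with an E2F motif was 30.6% with fewer spellings, against 1.80% of all genes with a window. With 5 neighbours on each side the neighbourhood median of Cdc45 rose from 0.21 to 0.42, and those of the other genes stayed between -0.20 and 0.17. The replicate number as a block gave 41 called replication genes, 16 above 2-fold, 76 related genes and 5040 genes in all. The numbers were not taken as pairs, since the deviations of same-numbered arrays correlated at -0.13, 0.33 and 0.26 for numbers 1, 2 and 3, and not every array correlated best with its own number. With 3 arrays of each line and 1 resistant clone, line, clone and culture cannot be told apart.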
